A study of Mus musculus with 24 samples.

Results

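This report describes the numbered zinc finger protein genes of a mouse macrophage-like cell line, RAW264.7, through a time course of exposure to bacterial lipopolysaccharide (LPS) in 2 engineered lines. The members are the gene names of the array made of Zfp and digits, other than Zfp36, and of Zkscan and digits. Of 27827 gene names on the array, 272 are members, 7 of them Zkscan names and the rest Zfp names. A member was tested when every one of the 3 arrays in 1 or more of the 8 groups read a probe of it well above background, and its brightest such probe stood for it. This left 219 members (212 Zfp and 7 Zkscan names) among 15096 gene names, and 53 members were not tested. Of the 219, 177 were well above background on all 24 arrays. The rule for members used names and detection, but the set was chosen with earlier results of these data known.

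Most Zfp genes encode proteins with tandem C2H2 fingers. Each finger is a short loop held around a zinc ion by paired cysteines and paired histidines, and it reads a few bases of DNA. Many carry a KRAB box, which recruits the corepressor Trim28 and the methyltransferase Setdb1 to silence retroelements and other loci. Zkscan genes add a SCAN domain, through which such proteins pair. The Zfp prefix also covers proteins with no such role, among them ribosome assembly factors, ubiquitin ligases and RNA-binding proteins. In macrophages, LPS is sensed through Toll-like receptor 4 and sets off waves of inflammatory transcription.

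All cells were grown in DMEM with serum and G418, the drug that selects for the construct. The control line harboured a construct for chloramphenicol acetyltransferase (CAT), a bacterial enzyme, and the other line one for overexpression of Tbc1d23, a Rab GTPase activating protein family member that the series title calls an innate immune gene. Each line was left without LPS (0 h) or given 20 ng/ml LPS for 1, 3 or 5 h, with 3 biological replicates in each of the 8 groups per the series design. There was 1 line for each construct, and the labels leave unstated if it is a clone or a pool. Total RNA of each culture, carrying the dye Cy3, was read on an Agilent array of its own, 24 in all.

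A level here is the log2 signal of a probe after the array's own 75th percentile was taken off, so 0 is the signal of a fairly bright probe. Between 42.1% and 69.5% of probes were well above background on an array. Both ends of that range were 0 h arrays of the Tbc1d23 line (replicates 1 and 2), and the other arrays lay between 46.2% and 62.0%. Each of the 6 slides held the 4 times of 1 line and replicate, with the time fixed by the position on the slide, so LPS time and slide position cannot be told apart. The lines lay on different slides. By their barcodes the slides fall into 2 sets of nearby serial numbers, here called slide runs, which the labels do not name. Of the 3 Tbc1d23 slides, 2 are in a run without CAT slides. All 11 macrophage markers were well above background on every array. Their summed linear level was 1699 to 2690 in CAT arrays and 1082 to 2000 in Tbc1d23 arrays. No marker of the T and NK, B, fibroblast and epithelial, or granulocyte and erythroid lists was above background on all arrays, and each of those summed levels was at most 2.14. Of 12 classical LPS response genes, 10 rose in the CAT line at 1 h and 12 at 3 h, against 7 and 9 in the Tbc1d23 line. The brightest Tbc1d23 probe gave 2.60 to 3.48 in CAT arrays and 2.89 to 3.72 in Tbc1d23 arrays, a line difference of 0.03 ± 0.11 (SE; limma adjusted p = 0.805). Whether that probe lies within the construct is not given, so the line below is the line labelled Tbc1d23.

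The members were dim genes. Their mean level had a median of -0.36, against 0.28 over all genes tested, and ran from -4.48 for Zfp146 to 6.33 for Zfp710. Zfp608, Zfp146 and Zfp449 passed the detection filter with 8, 9 and 9 arrays above background. Zfp572, Zfp97 and Zfp13 fell just outside it, with at most 2 arrays above background in any group. The median SD of a member between the 3 arrays of a group was 0.13 to 0.24 on the log2 scale.

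The clearest response was a fall within 1 h of LPS in the CAT line. Of the 219 members, 58 (26.5%) were called lower (limma, Benjamini-Hochberg adjusted p under 0.05 over all genes), whereas 3.44% of all genes tested were. In the other direction 9 members (4.11%) were called higher, against 3.86% of all genes. The median member differed by -0.29 and the median gene by -0.07. Of the members called lower, 31 were more than 2-fold lower, against 1.23% of all genes called so. With the slide of each line and replicate as a block, 88 members were called lower. Another scaling, each array centred on its own median, called 21 lower and 2 higher. It shifts all genes of a comparison by the same amount, so the median member stays 0.22 below the median gene by construction. In these whole-culture RNAs, fewer cells with a transcript and less of it per cell cannot be told apart.

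**Figure D1:**
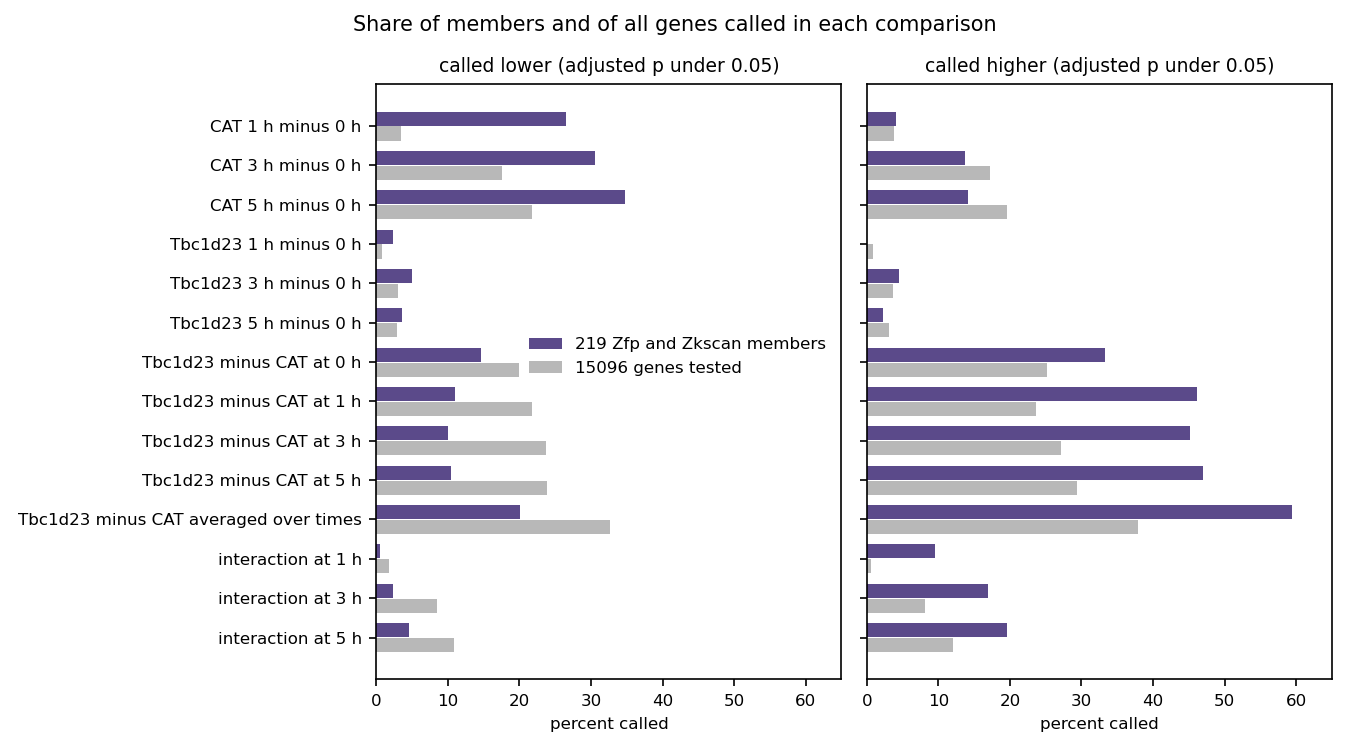
Percent of the 219 members (purple bars) and of the 15096 genes tested (grey bars) called lower (left) and called higher (right) in each comparison at an adjusted p under 0.05. For the CAT line at 1 h the bars for lower stand at 26.5% and 3.44%, and for the line difference averaged over times the bars for higher stand at 59.4% and 37.9%.

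Zkscan14, a SCAN domain zinc finger gene, led the members that were detected on every array compared. In the CAT line its level was 0.18, 0.04 and 0.00 at 0 h, then -2.15, -2.23 and -2.34 at 1 h, -1.42, -1.40 and -1.56 at 3 h, and -1.04, -1.11 and -1.09 at 5 h. The 3 arrays of each time lay close together, and no array after LPS reached the levels at 0 h. It fell 4.98-fold at 1 h (log2 -2.32 ± 0.16 SE, n = 3 per group, limma adjusted p = 4.8e-09). In the Tbc1d23 line the same probe read 0.01, -0.60 and 0.31 at 0 h and -0.60, -0.67 and -0.44 at 1 h, and these groups overlapped.

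Zfp30, a KRAB gene known from mouse genetics of airway neutrophil recruitment, read -1.60, -0.74 and -1.02 at 0 h and -3.67, -2.96 and -3.48 at 1 h in the CAT line. It stayed near that level, at -2.94 to -4.09 at 3 h and -3.29 to -3.59 at 5 h. In the Tbc1d23 line all 12 values lay between -0.22 and 0.66. The groups of the 2 lines did not overlap at any time. The fall in CAT was 4.76-fold at 1 h (log2 -2.25 ± 0.29, limma adjusted p = 1.9e-05).

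Zfp273 had the smallest adjusted p of the members called lower at 1 h. In the CAT line it read -1.07, -1.25 and -1.15 at 0 h, -3.41, -3.22 and -3.24 at 1 h, -1.68, -1.77 and -1.61 at 3 h, and -1.82, -1.97 and -1.77 at 5 h. The level at 1 h was the lowest of the course, and the later arrays lay between it and 0 h. The fall was 4.39-fold at 1 h (log2 -2.13 ± 0.11, limma adjusted p = 5.4e-11), and a further probe of the gene gave -1.94. In the Tbc1d23 line it read -2.05, -2.08 and -1.79 at 0 h and -3.13, -3.20 and -2.96 at 1 h. There the fall was 2.19-fold (log2 -1.13 ± 0.11, limma adjusted p = 2.8e-06), and the further probe gave -0.71.

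Zfp647 read -1.86, -1.55 and -0.72 at 0 h in the CAT line and -3.48, -3.46 and -3.47 at 1 h, a fall of 4.27-fold (log2 -2.09 ± 0.24, limma adjusted p = 5.6e-06). Its 0 h arrays were spread more widely than its 1 h arrays, without overlap. Zfp39 fell by 1.79 on the log2 scale at 1 h, and at 3 h its arrays, at -1.46 to -2.18, overlapped those of 0 h at -1.51 to -2.39. Zfp61, Zfp12 and Zfp53 fell by 1.73, 1.63 and 1.59, with adjusted p-values of 7.0e-07, 4.7e-06 and 4.3e-06 in the same fit. Zfp61 and Zfp12 are the bright genes of this group, at 2.46 to 2.89 and 2.65 to 2.96 at 0 h and at 0.83 to 1.16 and 1.01 to 1.31 at 1 h. A further probe agreed in sign and size for Zfp61 (-1.71) and for Zfp53 (-1.58). Zfp94 had the most negative fitted value (-2.51 ± 0.53), but only 1 of its 3 arrays at 1 h was well above background. Zfp157 followed at -2.12 with 2 of 3.

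**Figure D2:**
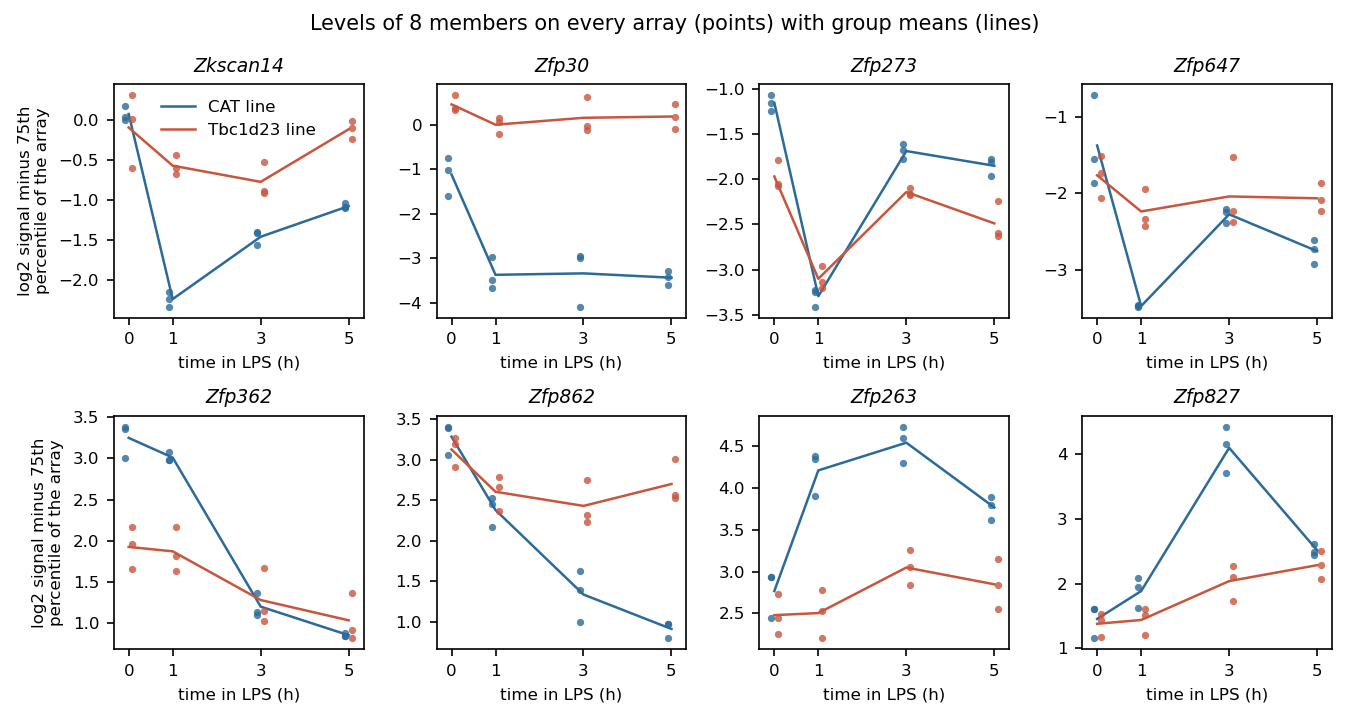
Level of 8 members on every array (points, log2 signal minus the array's 75th percentile) against time in LPS in hours, with group means joined by lines for the CAT line (blue) and the Tbc1d23 line (red). Zkscan14, Zfp273 and Zfp647 are lowest at 1 h in the CAT line, Zfp362 and Zfp862 go down over 5 h, and Zfp827 peaks at 3 h, at 3.71 to 4.43.

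Several of these probes read the finger repeat itself. The array holds a 60-base probe for each gene, here given from 5′ to 3′ on the strand of the transcript with mm9 positions. Capitals mark 8 codons that begin with leucine, then 2 codons of any kind, histidine, 3 codons of any kind and a further histidine, the zinc-binding end of a finger, in a frame with no stop. They are shown because the same short unit recurs in genes that fell.
Zkscan14 (chr5:145956033-145956092, minus strand): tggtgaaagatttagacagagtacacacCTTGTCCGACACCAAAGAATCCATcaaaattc
Zfp61 (chr7:25076136-25076195, minus strand): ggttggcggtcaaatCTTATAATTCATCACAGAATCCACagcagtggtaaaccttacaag
Zfp53 (chr17:21646039-21646098, plus strand): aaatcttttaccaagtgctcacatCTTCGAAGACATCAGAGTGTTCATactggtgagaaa
Zfp28 (chr7:6347451-6347510, plus strand): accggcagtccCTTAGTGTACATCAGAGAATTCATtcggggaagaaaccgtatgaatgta
The unit was found in the probes of 13 of the 219 members (5.94%) and of 79 of the 15096 genes tested (0.523%). Of those 13 members, 6 (46.2%) were called lower in CAT at 1 h, against 52 (25.2%) of the other 206 members and 3.44% of all genes. The median was -0.91 for the 13 and -0.27 for the other members. This difference was not tested. No member's probe lay within 6 base edits of a probe with another gene name, so a near-identical probe of another gene was not found on the array. Transcripts of close relatives can still share parts of a finger repeat.

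Members that were lower at 1 h followed different courses afterwards. The 58 had a median of -1.03 at 1 h (range -2.51 to -0.41), -0.64 at 3 h (-2.31 to 0.97) and -0.61 at 5 h (-2.37 to 1.32). All 3 comparisons share the CAT 0 h arrays, so they are given side by side. Zfp30, Zfp324, Zfp41, Zfp503 and Zfp862 were called lower at every time, and Zfp420 was called higher later. Zfp420 is the mouse counterpart of a p53 inhibitor. It read -2.20 to -2.39 at 0 h, -2.88 to -2.99 at 1 h, -1.05 to -1.65 at 3 h and -0.79 to -1.10 at 5 h. The groups at 0, 1 and 3 h did not overlap.

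**Figure D3:**
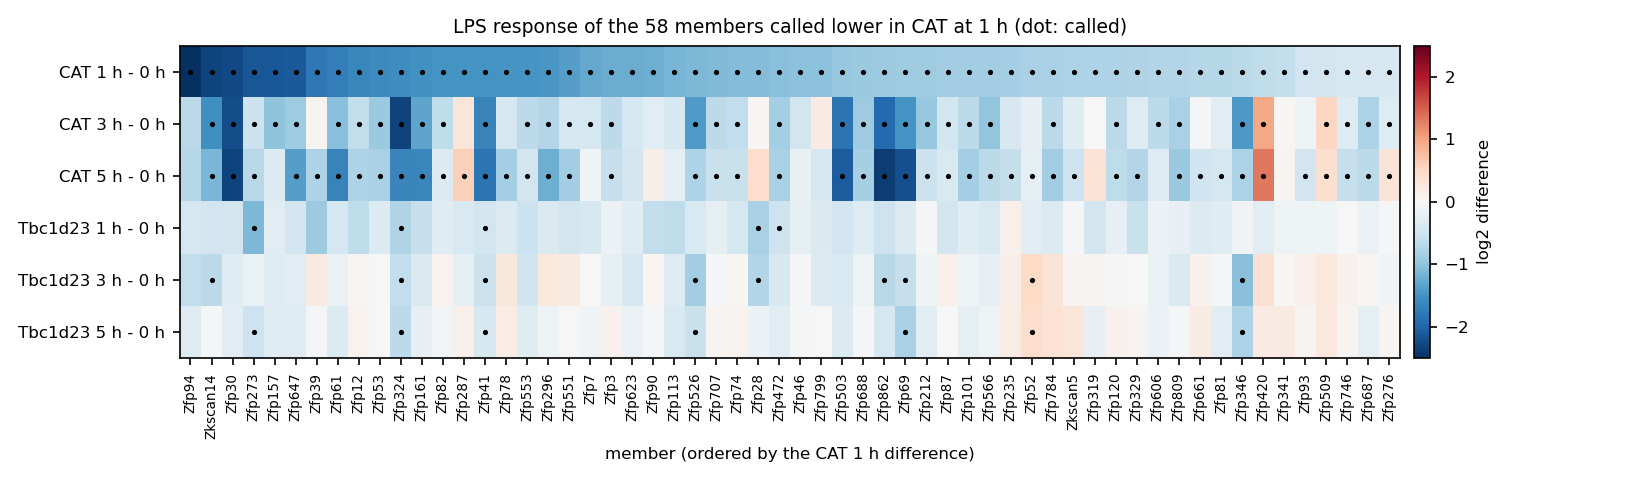
Log2 difference from 0 h (colour, blue for lower and red for higher) of the 58 members called lower in CAT at 1 h, in columns ordered by that difference, at 1, 3 and 5 h in the CAT line and in the Tbc1d23 line (rows). A dot marks a call at an adjusted p under 0.05, and 5 of the 58 carry one in the Tbc1d23 line at 1 h.

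The 9 members called higher at 1 h in CAT were few and mostly small in size. Zfp263, which carries SCAN and KRAB domains, read 2.44, 2.93 and 2.93 at 0 h, 4.38, 4.35 and 3.90 at 1 h, 4.60, 4.74 and 4.30 at 3 h, and 3.62, 3.89 and 3.80 at 5 h. Every array after LPS was above every array at 0 h. It rose 2.72-fold at 1 h (log2 1.44 ± 0.20, limma adjusted p = 5.1e-05), and its other probes gave 1.57 and 1.59. Zfp622, an assembly factor of the large ribosomal subunit, rose by 0.73 ± 0.16 at 1 h and was at -0.15 and -0.01 at 3 and 5 h. Zfp516, an activator of brown fat genes, and Zfp667 rose by 0.58 and 0.77. For Zfp516 a further probe gave 0.09, and for Zfp667 one gave 0.11. The call of Zfp667 was lost in 5 of 24 fits that left out 1 array (limma adjusted p up to 0.138). Zfp667 was lower later, at -1.29 and -1.09 at 3 and 5 h. Zkscan1, host of an abundant circular RNA, rose by 0.28 ± 0.08 by its brightest probe, with -0.17 and 0.55 by its others, and Zkscan6, Zfp275, Zfp330 and Zfp800 complete the list. Leaving out 1 array (CAT 1 h replicate 1) left 4 members called higher, and 15 were called higher with the slide block.

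At 3 h of LPS in the CAT line, falls still outnumbered rises among the members. Of 219, 67 (30.6%) were called lower and 30 (13.7%) higher, against 17.5% and 17.2% of all genes. Zfp324 fell 4.95-fold (log2 -2.31 ± 0.17, limma adjusted p = 2.4e-09), from -0.13, 0.21 and 0.45 to -1.85, -2.16 and -2.38, and a further probe gave -1.74. Zfp710, the brightest member, read 6.57, 7.00 and 6.95 at 0 h, 6.75, 6.80 and 6.55 at 1 h, 5.08, 4.93 and 4.60 at 3 h, and 6.34, 6.46 and 6.41 at 5 h. It fell by 1.97 ± 0.20 on the log2 scale at 3 h, with -1.91 by its second probe, and its values of -0.14 and -0.44 at 1 and 5 h were not called. Zfp503, a corepressor of the Nolz family known from striatal development, and Zfp41 fell by 1.83 and 1.67. Zfp862, matched by synonym to the RefSeq entry Zfp862-ps, a transcribed pseudogene, fell by 1.95. Zfp30 and Zkscan14 fell by 2.22 and 1.54. Centring on the array median called 25 lower and 6 higher, a share of higher calls of 19.4% in place of 30.9%.

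Zfp362, a paralogue of the DNA-binding factor Zfp384, read 3.00, 3.39 and 3.36 at 0 h, 2.98, 3.07 and 2.98 at 1 h, 1.37, 1.13 and 1.11 at 3 h, and 0.84, 0.85 and 0.88 at 5 h. The later groups lay far below the first without overlap, a fall of 2.05 ± 0.18 at 3 h and 2.39 ± 0.18 at 5 h. A second, dimmer probe of Zfp362 gave 0.35 and 0.19, so the fall was seen by 1 of the 2 probes, and their mean gave -0.85 at 3 h, which was not called.

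The rises at 3 h included a few large ones. Zfp827, which recruits the NuRD complex to telomeres, read 1.15, 1.61 and 1.61 at 0 h, 2.09, 1.95 and 1.62 at 1 h, 4.43, 4.16 and 3.71 at 3 h, and 2.44, 2.61 and 2.50 at 5 h. It rose 6.24-fold at 3 h (log2 2.64 ± 0.19, limma adjusted p = 2.2e-09), and its other probe gave 2.98. Zfp811 was not well above background on any CAT array at 0 h and read -1.24, -1.63 and -1.44 at 3 h, at least 9.35-fold higher (limma adjusted p = 3.4e-09). That bound sets the 3 h mean against the lowest signal well above background on each 0 h array. A gene undetected at 0 h passed the detection filter through other groups, so its direction follows in part from that rule. Zfp819, a KRAB gene linked to retroelement repression, was at least 7.78-fold higher at 3 h by the same bound (adjusted p = 3.4e-08) and at least 3.18-fold higher at 5 h. Zfp263 rose by 1.78 ± 0.20, Zfp516 by 0.98, Zfp420 by 0.97 and Zfp593, an assembly factor of the large ribosomal subunit, by 0.89. Zfp608 was at least 2.89-fold lower at 3 h (limma adjusted p = 4.4e-06). It was not well above background on any CAT array at 3 h, so its direction too follows in part from the detection filter.

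By 5 h, 76 members (34.7%) were called lower and 31 (14.2%) higher in CAT, against 21.8% and 19.6% of all genes. Zfp862 read 3.06, 3.39 and 3.41 at 0 h, 2.45, 2.52 and 2.17 at 1 h, 1.63, 1.39 and 1.00 at 3 h, and 0.80, 0.97 and 0.97 at 5 h. Its groups were lower at each later time without overlap, and the difference at 5 h was 5.17-fold (log2 -2.37 ± 0.19, limma adjusted p = 3.8e-09). Zfp69, a KRAB gene linked to hyperlipidaemia and diabetes in mice, read 0.82, 1.14 and 1.09 at 0 h and -1.05, -1.23 and -1.28 at 5 h, a fall of 2.20 ± 0.13. It too was lower at each later time, with 0.08 to 0.16 at 1 h and -0.35 to -0.63 at 3 h. Zfp652, a partner of the corepressor Cbfa2t3, read -0.52 to -1.09 at 0 h and -2.43 to -2.63 at 5 h, a fall of 1.80 ± 0.19. Zfp503, Zfp41, Zfp61 and Zfp324 fell by 2.09, 1.83, 1.67 and 1.66. Zfp40 was at least 1.54-fold lower. It was not well above background on any CAT array at 5 h, so its direction follows in part from the detection filter.

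Zfp513, which binds promoters of photoreceptor genes, rose at 5 h from 1.11, 0.98 and 0.79 to 2.23, 2.11 and 2.13 (log2 1.19 ± 0.10, limma adjusted p = 8.7e-09), and it was 1.57 to 1.61 at 3 h. Zfp420 rose by 1.32, Zfp827 by 1.06, Zfp593 by 1.04 and Zfp119 by 1.03. Zfp811 was at least 5.68-fold higher. The second probe of Zfp593 gave 0.66 and that of Zfp827 gave 1.67. Among 88 members with several kept probes, the brightest and the next probe correlated across members with r = 0.745, 0.686 and 0.619 at 1, 3 and 5 h in CAT. The sign of the second probe was opposite for 2 of the 27, 6 of the 44 and 9 of the 47 called.

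Far fewer members were called in the line labelled Tbc1d23. At 1 h, 5 members (2.28%) were called lower and 0 higher, against 0.808% and 0.835% of all genes. At an unadjusted p under 0.05 in limma the counts were 35 lower and 1 higher. The 5 were Zfp273, Zfp28, Zfp324, Zfp472 and Zfp41. Zfp28 read -1.81, -2.66 and -2.25 at 0 h and -3.21, -3.26 and -2.70 at 1 h. Zfp324 read 0.21, 0.42 and 0.10 and then -0.50, -0.24 and -0.82. Zfp41 read -0.15, -0.07 and -0.26 and then -0.53, -0.52 and -0.79. In each of these 3 genes the groups did not overlap, and the differences were -0.82 ± 0.20, -0.76 ± 0.17 and -0.45 ± 0.10. Zfp472 differed by -0.53 ± 0.13 (adjusted p = 4.4e-02). Centring on the array median turned Zfp41 to 0.11 and Zfp472 to 0.04, with 0 members called lower, and moved the median gene from -0.09 to 0.48. The 0 h replicates 1 and 2 stood apart in detection. A fit without both called fewer members lower, but it keeps only 1 array in that group, so its count is not given. Leaving out 1 array at a time ended the limma call of Zfp28 in 18 of 24 fits (adjusted p up to 0.271), of Zfp472 in 15 (up to 0.174), of Zfp324 in 4 and of Zfp41 in 3. With the slide block 20 members were called lower.

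At 3 h in the Tbc1d23 line 11 members (5.02%) were called lower and 10 (4.57%) higher, against 2.98% and 3.65% of all genes, and at 5 h 8 (3.65%) and 5 (2.28%), against 2.9% and 3.15%. Zfp346, a double-stranded RNA-binding protein, read -0.30, -0.47 and -0.57 at 0 h, -0.39, -0.54 and -0.68 at 1 h, -1.66, -1.35 and -1.47 at 3 h, and -1.35, -0.86 and -1.43 at 5 h. It fell by 1.04 ± 0.18 at 3 h (limma adjusted p = 6.6e-04), with 1 h overlapping 0 h and the later groups apart from it. Zfp526 fell by 0.86 ± 0.13 at 3 h, and Zfp367 and Zfp69 fell by 0.90 ± 0.22 and 0.81 ± 0.13 at 5 h. Zfp710, Zfp28 and Zfp862 fell by 0.76, 0.74 and 0.70 at 3 h, and Zfp362 and Zfp324 by 0.89 and 0.66 at 5 h. With the slide block 24 and 12 were lower and 21 and 11 higher at these times.

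Among the members that rose in the Tbc1d23 line, Zfp318, which controls IgD expression in B cells, read -0.46, -0.17 and -0.47 at 0 h and 0.39, 0.34 and 0.19 at 3 h, a rise of 0.67 ± 0.11 (limma adjusted p = 6.0e-04). In CAT the same gene went from -0.34 to -0.64 down to -1.17 to -1.32 at 3 h. Zfp516 and Zfp52 rose by 0.62 and 0.49 at 3 h and by 0.44 and 0.44 at 5 h. The second probe of Zfp516 gave -0.34 and 0.17. Zfp827 rose by 0.66 and 0.91, with 0.51 and 1.48 by its other probe, and Zfp513 by 0.40 at 5 h. Zfp811 was at least 2.12-fold higher at 3 h. A fit without both 0 h arrays named above called fewer members lower at 3 and 5 h. It keeps 1 array in that group, so its counts are not given. Several of these calls were near the threshold. When each of the 24 arrays was left out in turn, the limma call was lost in 19 fits for Zfp516 at 5 h (adjusted p up to 0.224) and in 17 for Zfp827 at 3 h (up to 0.215). Between 3 and 5 fits lost the calls of Zfp28, Zfp710 and Zfp862 at 3 h and of Zfp324, Zfp346, Zfp367 and Zfp513 at 5 h.

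The members that fell early in CAT were also read on the separate arrays of the Tbc1d23 line. Of the 58 members called lower in CAT at 1 h, 56 (96.6%) were below 0 in the Tbc1d23 line at 1 h, with a median of -0.36 and a range of -1.13 to 0.12. Of the 152 members not called in CAT, 112 (73.7%) were below 0, with a median of -0.12. Of the 9 called higher, 1 was below 0, and over all genes 68.2% were, with a median of -0.09. The signs depended on the scaling: with each array centred on its median, 8 of the 58 (13.8%), 9 of the 152 (5.92%) and 9.89% of all genes were below 0. The medians were then 0.21, 0.45 and 0.48. In the main fit 53 of the 58 (91.4%) and 86 of the 152 (56.6%) lay below the median gene. Median centring cannot change these counts, since it shifts all genes of a comparison by the same amount. With quantile normalization 49 (84.5%) and 79 (52.0%) lay below it. Across the 219 members the responses of the lines correlated with r = 0.48 (rho = 0.61) at 1 h, 0.60 (0.59) at 3 h and 0.55 (0.43) at 5 h, against r = 0.50, 0.52 and 0.48 over all genes. Members are not independent replicates, and slide position is shared by both lines.

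**Figure D4:**
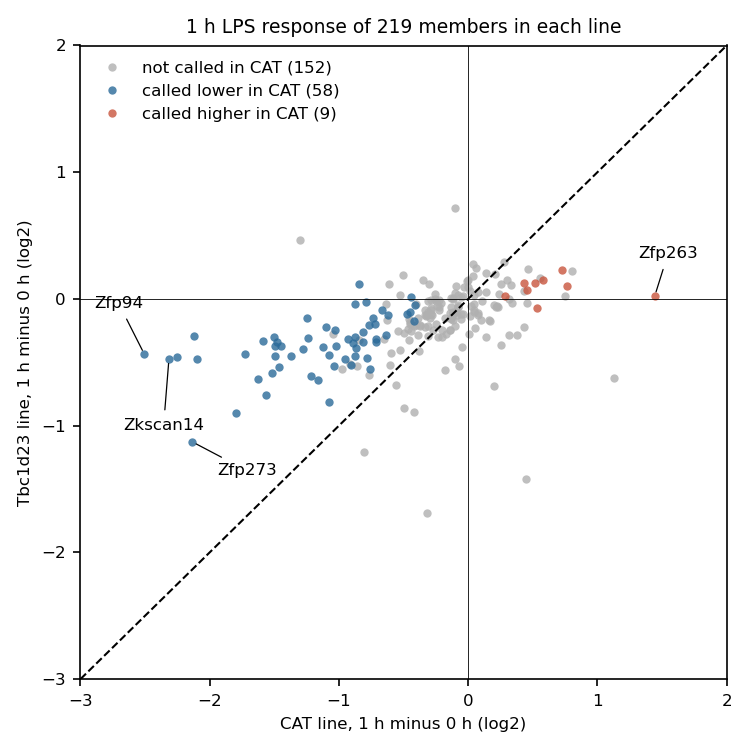
Log2 difference of 1 h from 0 h in the Tbc1d23 line (vertical axis) against that in the CAT line (horizontal axis) for each of the 219 members, coloured by the call in CAT, with the line of equal response dashed. Of the 58 blue points, 56 lie below 0 on the vertical axis, with a median of -0.36 there and -1.03 on the horizontal axis. With each array centred on its median, 8 of them would lie below 0.

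The difference between the responses of the lines was tested as an interaction, the LPS response in Tbc1d23 minus that in CAT. At 1 h, 21 members (9.59%) had a higher value in Tbc1d23 and 1 a lower one, against 0.563% and 1.82% of all genes. At 3 h there were 37 (16.9%) and 5 (2.28%), against 8.09% and 8.46%, and at 5 h 43 (19.6%) and 10 (4.57%), against 12.1% and 10.9%. Zkscan14 was at 1.84 ± 0.23 at 1 h (limma adjusted p = 5.1e-05) and Zfp263, the member with the lower value, at -1.42. Tbc1d23 0 h replicates 1 and 2 stood apart in detection. A fit without both called fewer members with a higher value at each time. It keeps only 1 array in that group, so its counts are not given. With the slide block 35, 62 and 64 members had a higher value, and 6, 18 and 27 a lower one. Centring on the array median left 2, 16 and 14 higher. Leaving out CAT 1 h replicate 3 alone left 12 at 1 h.

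At 3 h the interaction was largest upwards in Zfp30 (1.92 ± 0.41), Zfp324 (1.68 ± 0.24), Zfp503 (1.45 ± 0.27) and Zfp318 (1.42 ± 0.16), with adjusted p-values from 2.6e-06 to 2.4e-03 in limma. For Zfp30 the normexp background correction gave 0.45, which was not called. Zfp827 and Zfp263 had lower values, -1.98 ± 0.28 and -1.21 ± 0.29. Zfp827 read 1.74, 2.10 and 2.28 at 3 h in the Tbc1d23 line, below all 3 CAT arrays of that time. Zfp503 started from -1.38 to -1.65 at 0 h in the Tbc1d23 line, where CAT arrays were at -0.12 to 0.58, and ended at -1.73 to -1.92 there and -1.64 to -1.94 in CAT at 5 h.

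At 5 h Zfp862 (1.95 ± 0.26), Zfp652 (1.88 ± 0.27), Zfp503 (1.75 ± 0.27) and Zfp362 (1.50 ± 0.26) had the 4 largest upward interactions under the naming rule. Zfp652 read -0.06, 0.15 and -0.34 at 0 h in the Tbc1d23 line and 0.07, 0.11 and -0.19 at 5 h, so its groups overlapped there. For Zfp362 the mean of both probes gave 0.34, which was not called. Zfp420, Zfp281, Zfp513 and Zfp593 had lower values, at -1.12, -0.81, -0.79 and -0.74, and leaving out 1 array ended the limma call of Zfp281 in 3 of 24 fits and of Zfp593 in 2 (adjusted p up to 0.059 and 0.057). Zfp281, a GC-rich binding factor of stem cells, read 1.22 to 1.52 at 0 h and 2.01 to 2.40 at 5 h in CAT, and 1.22 to 1.74 and 1.26 to 1.81 in the Tbc1d23 line.

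More members were higher in the line labelled Tbc1d23 than lower. At 0 h 73 (33.3%) were called higher and 32 (14.6%) lower, against 25.2% and 19.9% of all genes, with medians of 0.18 and 0.10. After LPS the counts were 101 and 24 at 1 h (23.6% and 21.8% of all genes), 99 and 22 at 3 h (27.2% and 23.7%) and 103 and 23 at 5 h (29.4% and 23.9%). The median member was 0.44, 0.45 and 0.42 higher, while the median gene lay at 0.03 to 0.08. Averaged over the times, 130 members (59.4%) were higher and 44 (20.1%) lower, against 37.9% and 32.6% of all genes. These counts depended on the scaling. Centring on the array median turned the split at 0 h, with 13 higher and 43 lower, and moved the median gene there from 0.10 to -0.46. After LPS it left 39, 56 and 33 higher and 12, 11 and 18 lower at 1, 3 and 5 h, and 76 and 48 for the average. The member median at 0 h was 0.09 above the median gene, a distance that this centring cannot change. With 1 array left out at a time, 55 to 74 were higher and 23 to 34 lower at 0 h. Without both Tbc1d23 0 h replicates 1 and 2 that group keeps 1 array, so no count is given.

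Line differences also depended on the probe. Among the 88 members with several kept probes, the brightest and the next probe correlated with r = 0.066 at 0 h and 0.178 for the average over times, and the second probe had the opposite sign in 17 of the 44 and 24 of the 72 called. The lines lay on different slides and mostly in different slide runs. With the slide as a random block 103 members were higher and 31 lower for the average.

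Among members detected on every array of both 0 h groups, the largest differences upwards at 0 h were in Zfp389 (2.65 ± 0.25), Zfp438 (1.90 ± 0.30), Zfp428 (1.81 ± 0.16), Zfp560 (1.75 ± 0.40), Zfp106 (1.72 ± 0.10) and Zfp677 (1.69 ± 0.25). Zfp389, which RefSeq lists as a transcribed pseudogene, read -3.76 to -4.29 in CAT and -1.40, -1.80 and -1.14 in the Tbc1d23 line. Zfp560 read 1.37, 1.41 and 0.16 in the Tbc1d23 line, and replicate 3, from the slide run shared with the CAT line, was the low array at all 4 times. Without replicates 1 and 2, which leaves 1 array in that group, it was at 0.93. Zfp184, a KRAB gene, was not well above background on any of the 12 CAT arrays and read -0.28 to -2.27 at 0 h in the Tbc1d23 line, at least 8.85-fold higher. It passed the detection filter through Tbc1d23 groups alone, so its direction follows in part from that rule. The bound was 6.16-fold at 1 h, 5.31-fold at 3 h and 4.55-fold at 5 h.

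Downwards at 0 h, Zfp503, Zfp516 and Zfp362 were at -1.81 ± 0.19, -1.51 ± 0.13 and -1.32 ± 0.18. For Zfp362 the second probe gave 0.81. Zfp524, a telomere-binding protein, was at -1.22 ± 0.12, with 2.25 to 2.57 in CAT and 1.14 to 1.29 in the Tbc1d23 line. Zfp784 and Zfp580 were at -1.15 ± 0.21 and -1.30 ± 0.39. Zfp580 read -0.80, -0.90 and -1.98, again with replicate 3 apart, and without that array it was at -0.92 and was not called.

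Some members differed between the lines in 1 direction at all 4 times. Zfp93 read -1.65 to -2.40 over all 12 CAT arrays and -0.34 to 0.08 over all 12 Tbc1d23 arrays, a difference of 1.96 ± 0.05 averaged over times (3.90-fold, limma adjusted p = 7.0e-17). The SE and p-value of such averages treat the 12 arrays of a line as independent, though they lay on 3 slides. Zfp217, a partner of the CoREST corepressor, read -0.80 to -0.31 and 0.67 to 1.26 (1.50 ± 0.07). Zfp428 read 2.01 to 3.52 and 3.90 to 4.77 (1.69 ± 0.08). None of these ranges overlapped. Zfp296, a gene of pluripotent cells, and Zfp7 were at 1.78 ± 0.08 and 1.90 ± 0.07. The second probe of Zfp296 gave 1.58, but that of Zfp7 gave 0.11. Zfp106, an RNA-binding protein that motor neurons and muscle need, was at 1.57 ± 0.05 by its brightest probe, and its other 3 kept probes gave 0.08, -0.37 and -0.47. Zfp30 was at 3.01 ± 0.14 and was not above background on 1 CAT array.

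Of the members detected on all arrays, 5 were called lower in the Tbc1d23 line at each of the 4 times. Zfp516 read 0.18 to 1.45 in CAT and -1.29 to -0.37 in the Tbc1d23 line, a difference of -1.71 ± 0.06 (limma adjusted p = 3.1e-14), and its second probe gave -1.24. Zfp770 was at -0.83 ± 0.07, with a second probe at -0.52. Zfp653 was at -0.59 ± 0.07. Zfp110, the neurotrophin receptor interacting factor, was at -0.46 ± 0.05. Zfp91, a ubiquitin ligase of the NF-kB-inducing kinase, was at -0.39 ± 0.06, and its other 4 kept probes ran from -0.97 to 0.56, with -0.10 for their mean with the brightest.

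**Figure D5:**
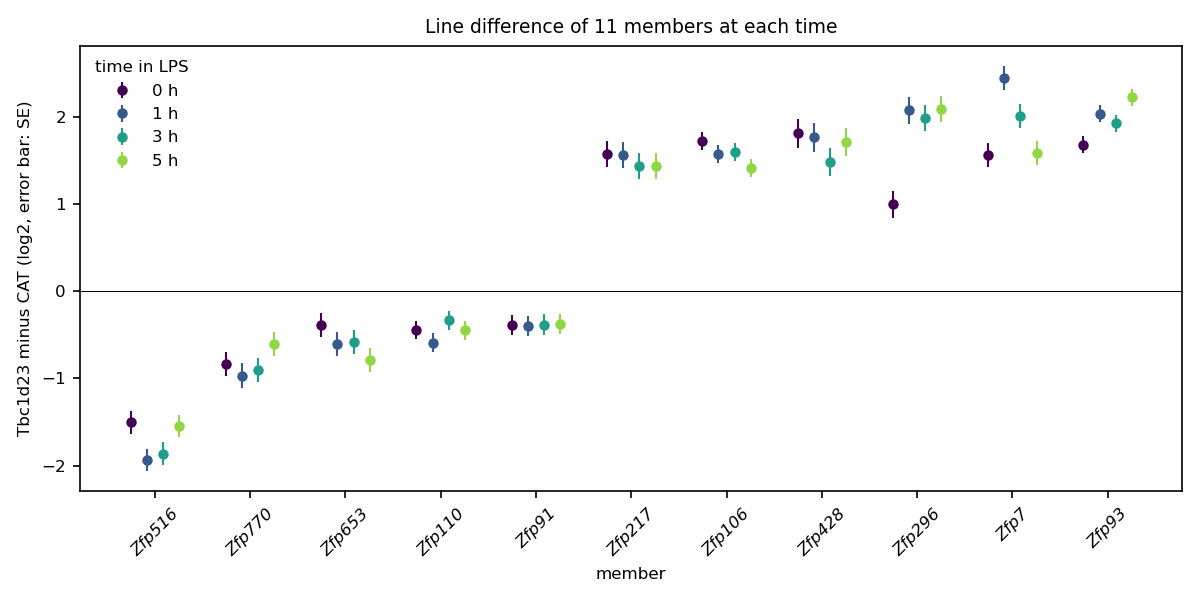
Log2 difference of the Tbc1d23 line from the CAT line at 0, 1, 3 and 5 h in LPS (points from dark to light, error bars the SE of the fit) for 11 members called in 1 direction at all 4 times, the 6 with the highest and the 5 with the lowest average among those detected on all 24 arrays. Of those shown, Zfp93 lies highest on average at 1.96 and Zfp516 lowest at -1.71.

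Of the members, 32 tested ones have a role known from other work. At 1, 3 and 5 h in CAT 4, 9 and 8 were called lower and 3, 8 and 8 higher. Over all genes 3.44%, 17.5% and 21.8% were lower and 3.86%, 17.2% and 19.6% higher. Averaged over times 20 of the 32 were higher in the Tbc1d23 line and 6 lower, against 37.9% and 32.6% of all genes. Zfp57, Zfp42, Zfp521 and Zfp365 of this list did not pass the detection filter. The list was drawn up with earlier results of these data known.

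Among the silencing factors, Zfp809, a KRAB protein that silences murine leukaemia virus, read 0.83, -0.26 and -0.41 at 0 h in CAT and -0.59, -0.74 and -0.69 at 1 h. It fell by 0.72 ± 0.22 at 1 h and 0.93 ± 0.22 at 5 h (limma adjusted p = 4.8e-02 and 1.6e-03). Replicate 1 at 0 h lay far above the others, and a second probe lay above 0 at all 3 times, with 0.30 at 3 h and 0.61 at 5 h. Zfp445, a KRAB protein that maintains imprints, was at -0.61, -0.65 and -0.74 in CAT, and none of these was called. Zfp161, the older name of the BTB factor Zbtb14, fell by 1.52, 1.31 and 1.63 at 1, 3 and 5 h, whereas Zfp238, the older name of Zbtb18, was at -0.04, -0.22 and -0.40 and was not called.

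Line differences of the members of this list are for the brightest probe, averaged over times. Zfp143, a promoter-binding activator, was 0.74 ± 0.07 higher in the Tbc1d23 line, and Zfp335, a chromatin factor that T cells need to mature, 0.80 ± 0.04 higher with 0.65 by a second probe. Zfp148, a GC-box binding factor, was 1.25 ± 0.11 higher, but its other probes gave -0.94, 0.29 and 0.74. It fell by 0.67 and 0.65 in CAT at 3 and 5 h. Zfp687 and its partner Zfp592 were 0.57 and 0.68 higher, and a second probe of Zfp592 gave 0.02. Zfp687 fell by 0.42, 0.80 and 0.65 at 1, 3 and 5 h in CAT, and Zfp592 fell by 0.55 at 3 h. Zfp64, an activator of the MLL gene in leukaemia, was 0.73 ± 0.08 higher, with 0.37 and -0.07 by its other probes, and fell by 0.64 at 3 h in CAT. Zfp384 was at -0.05 for the line average and at 0.00 to -0.17 in CAT, and was not called.

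Genes of RNA and protein handling went both ways. Zfp598, a ubiquitin ligase that senses collided ribosomes, rose by 0.41 and 0.36 at 3 and 5 h and was lower in the Tbc1d23 line (-0.40 ± 0.06). Zfp259, the older name of Zpr1, rose by 0.56 and 0.67 and was at -0.45 ± 0.05 for the line average, with 0.84 by a second probe. Zfp207, a kinetochore partner of Bub3, rose by 0.52 at 5 h. Zfp326, which couples elongation to splicing, fell by 0.44 at 5 h and was 0.81 ± 0.06 higher in the Tbc1d23 line, with 0.49 and -1.61 by its other probes. Zfp451, a SUMO ligase, was 0.98 ± 0.08 higher there, with -0.12, 0.56 and -0.01 by its others. Of the Zkscan genes, Zkscan3, a repressor of autophagy genes, fell by 0.32 at 3 h and Zkscan17, which binds Nsd1, fell by 0.58 at 5 h in CAT.

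Of 32 genes of the KRAB corepressor and HUSH machinery, limma called 0 in either direction in CAT at 1 h, with 1 lower and 1 higher at an unadjusted p under 0.05 and a median of -0.08. At 3 and 5 h 12 and 16 were called lower and 5 and 5 higher, where 17.5% and 21.8% of all genes were lower and 17.2% and 19.6% higher. Trim28, which KRAB boxes bind, was at -0.12, -0.70 and -0.81 at 1, 3 and 5 h (limma adjusted p = 0.999, 2.4e-03 and 5.2e-04), and Setdb1 at -0.03, -0.49 and -0.51 (0.999, 0.053 and 0.034). In the Tbc1d23 line both were lower at 0 h, with differences of -0.79 and -0.84, but they are not typical of the list. At 0 h 15 of the 32 were higher and 7 lower (median 0.32), against 25.2% and 19.9% of all genes. Averaged over times 20 were higher and 7 lower (median 0.39), against 37.9% and 32.6% of all genes. Of 26 genes named Zbtb, which join fingers to a BTB domain, 4 were called lower and 2 higher in CAT at 1 h, with a median of -0.08. Of 7 Zscan genes 1 was called lower, and over all genes 3.44% were lower and 3.86% higher at that time. These differences between families were not tested.

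The members are clustered in the genome, as C2H2 genes are known to be. Of all 219, 26.5% were called lower in CAT at 1 h, against 3.44% of all genes. On chromosome 7 lie 59, of which 20 were called lower, and on chromosome 17 lie 21, of which 7 were. Chromosome 15 had 5 of 9 called lower, chromosome 5 had 6 of 15, chromosome 13 had 3 of 17 and chromosome 9 had 1 of 14. Neighbouring genes share position and sequence, so these counts are no independent samples.

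The 250 bases before the start of 178 members were read from RefSeq's promoter table (GRCm38.p6, a later build than the probes'), to see which short motifs genes that move together share. The ETS motif CCGGAAG, searched on both strands, stood in 19.7% of members, 13.3% of genes tested and 7.05% of all promoters. Its share was 19.1% in the 47 members called lower in CAT at 1 h and 19.8% in the other 131. The GC box GGGCGG stood in 48.3% of members and 56.1% of genes tested, the box TATAAA in 7.30% and 8.03%, the cAMP element TGACGTCA in 3.37% and 2.63%, and the YY1 motif AAGATGGC in 2.81% and 2.03%. In members called lower and in the others the shares were 40.4% and 51.1% for the GC box, 10.6% and 6.11% for TATAAA, 0 of 47 and 4.58% for the cAMP element, and 2.13% and 3.05% for the YY1 motif. A motif was counted once for a promoter, whether or not it overlapped another. Promoters of members that fell (Zfp273, Zfp53) and of the member that rose most at 1 h (Zfp263) are given in the direction of transcription, with motifs on either strand in capitals.
Zfp273 (chr13:67813566-67813815, plus strand): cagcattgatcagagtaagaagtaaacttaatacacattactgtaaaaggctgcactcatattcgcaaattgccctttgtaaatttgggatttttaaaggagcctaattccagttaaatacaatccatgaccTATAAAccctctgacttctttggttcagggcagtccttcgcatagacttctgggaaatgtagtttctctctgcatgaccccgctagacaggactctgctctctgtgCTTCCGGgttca
Zfp53 (chr17:21488738-21488987, plus strand): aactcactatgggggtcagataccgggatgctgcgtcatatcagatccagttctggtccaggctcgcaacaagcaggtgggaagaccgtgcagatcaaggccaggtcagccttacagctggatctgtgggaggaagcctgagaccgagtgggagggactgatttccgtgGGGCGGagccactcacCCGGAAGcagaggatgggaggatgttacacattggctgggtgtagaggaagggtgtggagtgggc
Zfp263 (chr16:3743849-3744098, plus strand): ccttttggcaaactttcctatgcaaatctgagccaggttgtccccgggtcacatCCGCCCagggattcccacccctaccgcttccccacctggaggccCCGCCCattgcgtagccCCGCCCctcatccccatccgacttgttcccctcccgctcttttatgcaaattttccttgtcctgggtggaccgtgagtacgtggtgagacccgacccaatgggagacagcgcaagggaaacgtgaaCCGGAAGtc
The ETS motif is in all 3 of these windows, but Zfp30, Zfp39, Zfp61 and Zfp12, which also fell at 1 h and have an entry, do not hold it. A match is a description of the letters and shows no binding.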

How the data were processed

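RNA of 24 cultures of RAW264.7 cells (2 lines, 4 times, 3 replicates) was hybridised to one-colour arrays. Spot intensity was deposited as scanned, made by the authors with Agilent Feature Extraction 10.7.1.1 on mm9 probe positions, per the file headers. The authors' value table, on a log2 scale as found from its values, was deposited too and served as an alternative. The submitters' processing notes also name RMA and Partek, with no role.

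The processed signal was log2 transformed, less the array's 75th percentile, and averaged over spots of a probe without outlier spots. A probe was kept if it was well above background in every array of 1 or more groups, and the brightest stood for a gene name, which is that of the files. All 219 members matched the RefSeq gene table (187 by accession, 31 by symbol, 1 by synonym), and 12 have another current symbol. limma 3.58.1 in R 4.3.3 (lmFit, eBayes) was fitted to all 24 arrays with a mean for each of the 8 groups, and p-values were adjusted by Benjamini-Hochberg over 15096 gene names in each contrast. The fit was tested on simulated data. A fold bound was used where a group had no array well above background, so such a member passed the filter through another group. An exact permutation of 3 against 3 arrays cannot go below p = 0.1, so none is given. The number of arrays limits the precision.

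Replicates of a line with the same number shared a slide. Their deviations from group means correlated positively (r 0.186 to 0.687 in CAT and 0.520 to 0.826 in Tbc1d23). Across the lines r between same-numbered arrays was mostly negative (-0.434 to 0.029). Its median was -0.205 at the same time and -0.227 at other times. Slide is therefore the block in alternative fits. The main fit, which gave the SEs and p-values in the text, has no block and treats arrays of a slide as independent. The text names, from each contrast, the most extreme called members that were detected on all arrays compared and whose groups did not overlap (8 lowest and 4 or 5 highest in CAT, 5 and 4 in Tbc1d23, 6 and 6 between lines, 4 and 4 for interactions at 3 and 5 h). It also names members with a listed role, Trim28, Setdb1 and the members nearest the filter. Others were named after their values were seen. Members and lists were chosen with earlier results of these data known. A planned sorting of members by protein domains was not run, since no protein table was used here.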

Additional observations from a re-analysis of the deposited data

Results flagged for a closer look

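The responses of the lines to LPS differed by the interaction test. At 1 h 21 members (9.59%) had a higher response in Tbc1d23 than in CAT and 1 (0.457%) a lower one, against 0.563% and 1.82% of all genes. At 3 h there were 37 (16.9%) and 5 (2.28%), against 8.09% and 8.46%. The counts at 5 h were 43 (19.6%) and 10 (4.57%), against 12.1% and 10.9%. With 1 array left out at a time the numbers with a higher response were 12 to 22, 25 to 37 and 31 to 44. A fit without Tbc1d23 0 h replicates 1 and 2 called fewer members with a higher response at each time. It keeps 1 array in that group, so its counts are not given. At 3 h the named differences were 1.92 in Zfp30, 1.68 in Zfp324, 1.45 in Zfp503, 1.42 in Zfp318, -1.21 in Zfp263 and -1.98 in Zfp827. At 5 h they were 1.95 in Zfp862, 1.88 in Zfp652, 1.75 in Zfp503, 1.50 in Zfp362, -0.74 in Zfp593, -0.79 in Zfp513, -0.81 in Zfp281 and -1.12 in Zfp420.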

How the results depend on the processing

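Numbers of members called are given in the order 1, 3 and 5 h. Falls in CAT (58, 67 and 76) came to 21, 25 and 27 when each array was centred on its median, and the slide as a replicate block gave 88 at 1 h. Falls in Tbc1d23 (5, 11 and 8) were 0, 1 and 0 with median centring, 20, 24 and 12 with the slide block, and 27, 22 and 13 with slide as random effect. On slides of the run common to both lines each Tbc1d23 group has 1 array, so no counts of falls in Tbc1d23 are given there. The counts of higher responses given below for that run carry the same limit. With slide run as a block the falls were 9 and 17 at 1 and 3 h. At 1 h they were 11 without the filter on dim probes and 3 with normexp, whose fit failed on 6 arrays and used repaired parameters there. Members higher in the Tbc1d23 line fell under median centring to 13 at 0 h, then 39, 56 and 33, and 76 for the average (main 130). Members with a higher response in Tbc1d23 (21, 37 and 43) were 2, 16 and 14 with median centring, 35 and 62 at 1 and 3 h with the slide block, 38 and 62 with slide as random effect, and 4, 18 and 23 on slides of the common run. The count was 56 at 3 h with slide run as a block, 12 at 1 h without the filter, and 9 and 26 at 1 and 5 h with normexp. Replicate number as a block across both lines, quantile normalization, the deposited values, the mean of probes and the filter on all 24 arrays kept each of these counts within 1.5 times, and the slide block, which cannot be used for line differences, lost none of the named LPS responses and interactions. Chosen after seeing the data, leaving out Tbc1d23 0 h replicates 1 and 2 gave 2, 3 and 3 falls in Tbc1d23 and 5, 19 and 27 higher responses, and using the other run's Tbc1d23 slides alone gave 2 falls at 1 h. Leaving out 1 array at a time gave 49 to 60, 54 to 70 and 63 to 77 falls in CAT, 2 to 5, 4 to 11 and 3 to 8 in Tbc1d23, 55 to 74 higher in Tbc1d23 at 0 h, then 81 to 105, 88 to 101 and 91 to 105, 127 to 129 for the average, and 12 to 22, 25 to 37 and 31 to 44 higher responses. The lowest Tbc1d23 values came without replicate 1 at 0 h, at 3 h and at 5 h, and the lowest interaction at 1 h without CAT 1 h replicate 3. Of the 98 named results, median centring reversed Zfp41 (0.11) and Zfp472 (0.040) in Tbc1d23 at 1 h. Under these alternatives 41 of the 98 lost their call at least once, and 17 did when 1 array was left out. Some of the alternatives keep 1 array in a group. They include the common run and the fit without Tbc1d23 0 h replicates 1 and 2. The causes were not tested.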

Other observations

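Another 39 genes tested have a current RefSeq symbol of the Zfp or Zkscan kind but another name in the files, so the rule left them out. In CAT at 1 h 8 of them (20.5%) were called lower and 1 higher, against 3.44% and 3.86% of all genes, with a median of -0.10. Zfp763 (listed as 1700065O13Rik) was at -2.06 and Zfp958 (listed as BC003267) at -1.14. At 3 h 4 (10.3%) were called lower and 6 (15.4%) higher, against 17.5% and 17.2% of all genes, and at 5 h 5 and 5 (12.8% each), against 21.8% and 19.6%. Averaged over times 15 (38.5%) were higher in the Tbc1d23 line and 10 (25.6%) lower, against 37.9% and 32.6% of all genes, with a median of 0.22.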
